A study of Mus musculus with 2 samples.

Results

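The mouse miRNA genes named Mir466, Mir467, Mir669 and Mir297 form a group of related hairpins, and their counts were examined in the left cerebral cortex of adult mice. Members were the miRNA genes of GENCODE M21 whose name is one of these stems alone or the stem with a letter, or a letter and a number. This rule took 80 of 2202 annotated miRNA genes: 28 named Mir466, 17 named Mir467, 30 named Mir669 and 5 named Mir297. Mir297-1, whose name carries a number and no letter, fell outside the rule and had 0 counts in both libraries. The microRNA-seq libraries, with a stated size range under 30 nt, were made from total RNA of female 5xFAD/CAST mice aged 8 to 10 months. All samples belong to this 1 group, with replicate numbers 1 and 2. Mice of the 5xFAD line carry transgenes for mutant human amyloid precursor protein and presenilin 1 and develop amyloid plaques, and CAST is a wild-derived strain. The labels give neither the promoter of the transgenes nor a control genotype, so levels are described within this tissue. Both libraries cite a single donor entry and separate tissue samples. Whether separate animals were sampled is not stated, so the spread between the libraries may be technical.

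Most of these hairpins lie in a large miRNA cluster within an intron of Sfmbt2, a Polycomb group gene. The cluster is specific to rodents, and Sfmbt2 is imprinted, with expression from the paternal allele in the placenta, where the cluster is needed for normal growth. The hairpins arose by repeated duplication of a short unit and are rich in alternating UG and CA bases. A miRNA acts by pairing its seed, bases 2 to 8 of the mature strand, with target mRNAs, so copies with the same seed are expected to address overlapping targets.

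The miRNA genes held 4226300 counts in the library of replicate 1 and 5162369 in that of replicate 2. Levels are given as CPM, counts scaled to a total of 1000000, and 1 count was worth 0.237 and 0.194 CPM. CPM was computed over all counts on the gene's strand of miRNA genes, and means are given with the SD over the 2 libraries. A count of 0 allows up to 3 counts, or 0.710 CPM in replicate 1 and 0.581 CPM in replicate 2, and this limit covers counting error only. Reads that mapped to several places are held in a row of their own and made up 39.9% ± 0.689 (SD, n = 2) of all reads in the tables. All 6 neuronal marker genes listed for the tissue (Mir132, Mir137, Mir138-1, Mir128-1, Mir128-2 and Mir383) reached 10 CPM in both libraries, as did both markers of oligodendrocytes. The lists were chosen with earlier results of these data known. The neuronal list leaves out the Mir124a genes, of which Mir124a-1 and Mir124a-3 had mean levels of 2.67 and 1.47 CPM.

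Mature sequences of 8 members were found in the RefSeq table on GRCm38.p6, which shares its coordinates with mm10. All 8 lie outside Sfmbt2, and they are shown because the other 72 members were not matched in that table. The longest run of alternating U and G or A and C in a hairpin had a median of 14 bases over the 9 members outside Sfmbt2. Over the 71 members within Sfmbt2 this median was 9 bases, so the 8 sequences need not represent them. Seeds are in capitals.
Mir466q: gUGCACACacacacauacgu
Mir466i (3p): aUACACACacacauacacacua
Mir467f: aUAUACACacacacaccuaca
Mir467g: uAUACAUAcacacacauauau
Mir466k: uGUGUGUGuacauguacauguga
Mir466j: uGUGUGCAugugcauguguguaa
Mir467h: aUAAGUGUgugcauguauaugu
Mir669n: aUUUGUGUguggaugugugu
The first 4 hold runs of alternating A and C and the last 4 runs of alternating U and G. No seed occurred in more than 1 of these 8 members. Among the 1738 mature miRNAs of the table, 1 non-member shared such a seed: the 5p strand of Mir668 carries UAAGUGU, as Mir467h does. Mir668, a gene of the imprinted Dlk1-Dio3 region, had 6406 counts in replicate 1 and 3676 in replicate 2 with both arms summed. Mir467h had 0 in each library. Its mature strand lies on the 3′ side of the hairpin, where every 18-base stretch also occurs in another annotated hairpin. Reads that mapped to several places were not assigned to genes, so the 0 of Mir467h may not measure expression. The mature strand of Mir466q lies on the plus strand at chr3:28419988-28420007, in an intron of Tnik, a kinase gene. It was the 1 sequence among these 8 whose gene had counts, 4 in replicate 1 and 7 in replicate 2. The hairpin of Mir466k, at chr3:85467377-85467498 on the plus strand, shows how far the repeat extends on both sides of the mature strand, here in capitals.
Mir466k hairpin: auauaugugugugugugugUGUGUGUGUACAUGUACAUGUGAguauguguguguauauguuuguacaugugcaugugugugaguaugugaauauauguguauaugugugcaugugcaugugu

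Of the 80 members, 71 lie on the plus strand of chromosome 2 within Sfmbt2, from 10466663 to 10518279 (mm10), a span of 51.6 kb. All 71 fall in a single intron of 62472 bases, which is intron 10 of 1 annotated Sfmbt2 transcript and intron 11 of another. The remaining 9 lie on chromosomes 3, 5, 9, 10, 11 and 13. Mir466q is intronic in Tnik and the other 8 are intergenic on their own strand. Many of the numbered copies in Sfmbt2 recur at similar distances. Successive Mir467a copies start a median of 2462 bases apart (2413 to 4880), Mir669a copies 2457 (2420 to 6373) and Mir466b copies 2470 (2409 to 9795). Of the 10 Mir467a genes, 9 have a hairpin identical in every base to another, and the largest set of identical hairpins among them holds 7. The 12 Mir669a genes hold a set of 9 identical hairpins. Stretches of 18 bases, close to the length of a mature miRNA, were compared between every annotated miRNA hairpin and all others on both strands. In 32 members (40.0%), each of these stretches occurred in at least 1 other hairpin, against 273 of 2122 other miRNA genes (12.9%). Mir466g was the 1 member that shared no stretch at all, against 1066 (50.2%) of the other genes.

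Counts were found for 13 of the 80 members, and 67 (83.8%) had 0 counts in both libraries, against 64.1% of the other miRNA genes. Together the members had 3586 counts in replicate 1 and 5552 in replicate 2. Their summed level was 848 and 1075 CPM, or 0.0962% ± 0.0160 (SD, n = 2) of the counts. Detection, set at 10 CPM in both libraries, was reached by 7 members (8.75%) and by 302 of the other genes (14.2%). These shares were not tested against each other. The Mirg cluster from Mir379 to Mir410, another large imprinted miRNA cluster, had 31 of 38 genes detected and 4.53% ± 0.0689 of the counts. In that cluster 33 of 38 hairpins shared no 18-base stretch.

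The families differed in where the counts fell. Mir467 genes had 509 CPM in replicate 1 and 729 CPM in replicate 2 from 3 of 17 genes. Mir669 genes had 336 and 345 CPM, a mean of 341 ± 6.06 (SD, n = 2), from 7 of 30 genes. Mir466 genes, the family with the second most members, had 13 and 9 counts in all, or 2.41 ± 0.942 CPM, from 3 of 28 genes. All 5 Mir297 genes had 0 counts in both libraries. By counts assigned to genes, Mir467 was therefore the highest family in each library. The Mir466 total lay below that of Mir669 in each library by more than the spread between libraries. No 18-base stretch was free of copies in other hairpins for 10 of 17 Mir467, 13 of 30 Mir669 and 9 of 28 Mir466 genes. Reads that mapped to several places are left out of these totals, and the order of the families with them included was not tested.

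**Figure D1:**
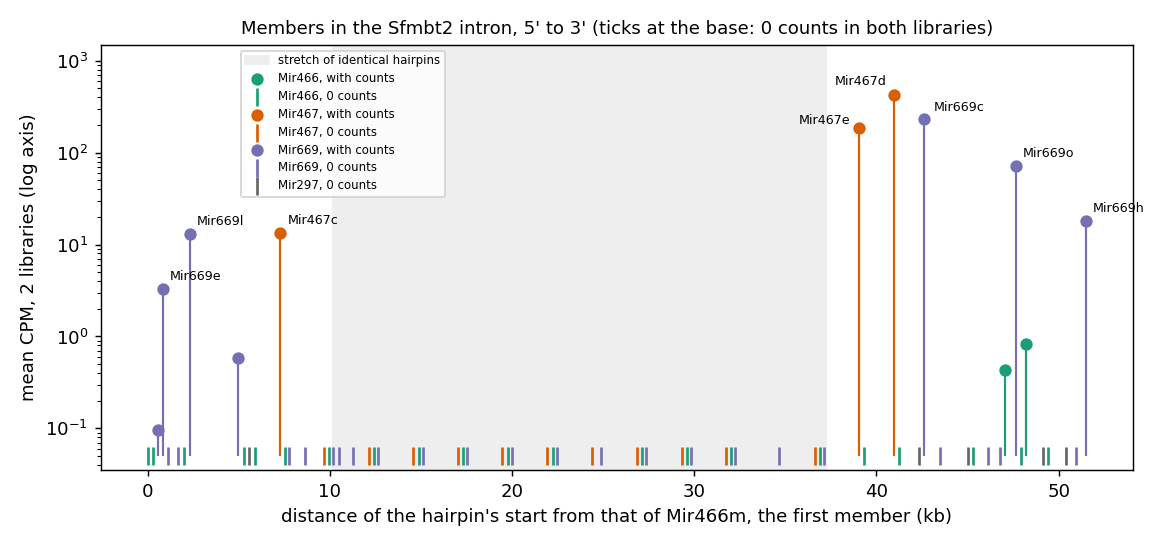
Mean CPM (log axis) of the 71 members in Sfmbt2 against the distance of each hairpin from Mir466m, the first one. Stems with points are the 12 members with counts and ticks at the base are the 59 with 0 counts; the grey band runs from the first to the last hairpin that has an identical copy, where none of 33 members had a count.

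Along the intron, counts came from both ends and not from the middle. The stretch from the first to the last hairpin with an identical copy, Mir669a-1 to Mir669a-12 (10476853 to 10503877), holds 33 members, and all had 0 counts in both libraries. Upstream of it, 5 of 18 members had counts, 143 in replicate 1 and 139 in replicate 2. Downstream, from Mir467e to Mir669h, 7 of 20 members had counts, 3439 in replicate 1 and 5406 in replicate 2. This downstream stretch of 12.6 kb thus held 95.9% of the member counts in replicate 1 and 97.4% in replicate 2. Of the 33 members in the middle, 28 had no 18-base stretch of their own, compared with 3 upstream and 1 downstream. Reads that mapped to several places were not assigned to genes, so the zeros of these 28 do not measure expression. In the rest of the middle (Mir669g, Mir669j, Mir467b, Mir466b-2 and Mir466b-3), 17.3% to 28.3% of the stretches were the hairpin's own. How far the same limit applies to their zeros was not tested.

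Mir467d (ENSMUSG00000077021.2; chromosome 2, 10507630 to 10507714) was the most abundant member, with 1439 counts in replicate 1 and 2583 in replicate 2. Its levels of 340 and 500 CPM gave a mean of 420 ± 113 (SD, n = 2), which ranked 134 among all 2202 miRNA genes. It alone held 40.1% of the member counts in replicate 1 and 46.5% in replicate 2. Mir669c (ENSMUSG00000076118.1; 10509296 to 10509404), the next detected member downstream, had 993 and 1210 counts. Its level was nearly equal in the libraries, at 234.96 and 234.39 CPM. Mir467e (ENSMUSG00000076948.2; 10505721 to 10505807), upstream of Mir467d, had 663 and 1103 counts, or 157 and 214 CPM. These 3 genes had the same order in both libraries, with no overlap of their values, and together they held 86.3% and 88.2% of the member counts.

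Mir669o (ENSMUSG00000077086.1; 10514300 to 10514395) had 264 and 409 counts, or 62.5 and 79.2 CPM, a mean of 70.8 ± 11.9 (SD, n = 2). The last member of the cluster, Mir669h (ENSMUSG00000080594.1; 10518155 to 10518279), had 71 and 99 counts, or 16.8 and 19.2 CPM. At the upstream end, Mir467c (ENSMUSG00000077049.2; 10473931 to 10474027) had 50 and 77 counts, or 11.8 and 14.9 CPM. Mir669l (ENSMUSG00000076959.1; 10468971 to 10469068), also upstream, had 67 and 53 counts, or 15.9 and 10.3 CPM. The levels of Mir467c and Mir669l overlapped, so their order is within the spread. Mir669h was above both in each library. In replicate 1 it had 71 counts against 67 for Mir669l, and this order was not tested. These 4 genes and the 3 above were the 7 detected members. Dividing by hairpin length, from 76 bases for Mir466q to 125 for Mir669h, left the order of the 9 members with 10 or more counts as it was by mean CPM.

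**Figure D2:**
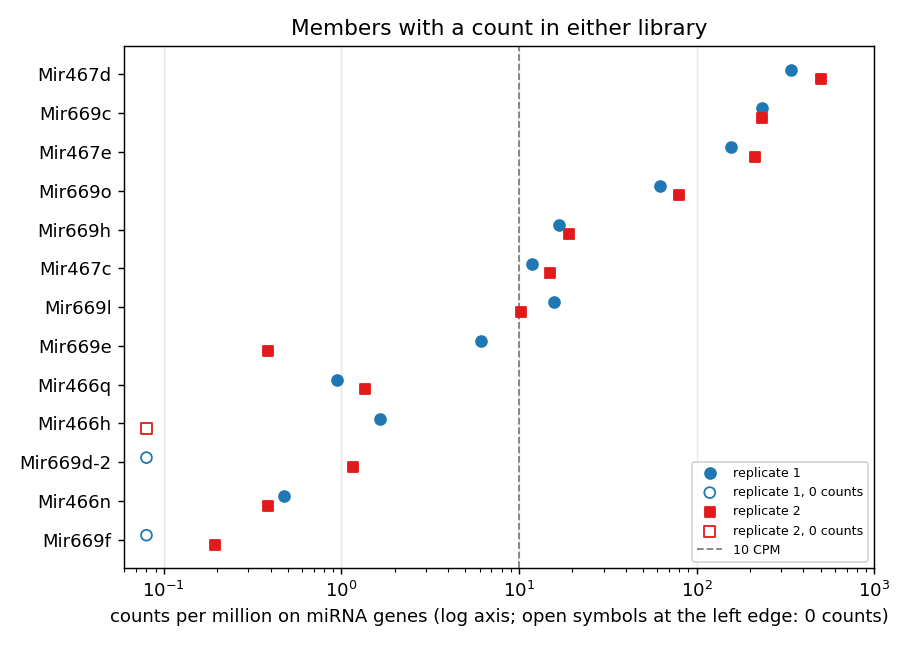
CPM (log axis) of the 13 members with a count, with replicate 1 as circles and replicate 2 as squares; open symbols at the left edge are 0 counts and the dashed line is 10 CPM. The 7 members to the right of the line in both libraries were led by Mir467d at 340 and 500 CPM; Mir669e is the member whose symbols stand farthest apart among those counted in both libraries.

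Below the detection threshold, Mir669e (ENSMUSG00000080653.1; 10467495 to 10467613) had 26 counts in replicate 1 and 2 in replicate 2. Mir466q, with 4 and 7 counts, stood at 1.15 ± 0.290 CPM (SD, n = 2) and was the 1 member outside Sfmbt2 with a count. The other 4 members with a count had 9 counts in each library together. Mir466h had 7 counts in replicate 1 and 0 in replicate 2, and Mir669d-2 had 0 and 6. Mir466n had 2 in each, and Mir669f had 1 count in replicate 2. Levels this low are near the limit set by a count of 0, and these 4 genes fell under the 10 counts set for a test.

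The members with counts all had sequence of their own. Reads that mapped to several places were not assigned to genes. A hairpin without a stretch of its own could therefore hardly receive a count at any level of expression, and its 0 does not measure expression. None of the 32 members without an 18-base stretch of their own had a count, whereas 6 of 31 members with a share of own stretches above 0% and under 50% did, and 7 of 16 with a share of 50% or more and under 100%. Among the other miRNA genes, 4 of 273 without a stretch of their own had counts, as did 16 of 349, 124 of 434 and 618 of 1066 (58.0%) in the classes above 0% and under 50%, from 50% to under 100%, and at 100%. Over the 13 members with counts, the share of own stretches ran from 33.3% to 92.2% with a median of 53.8%. Over the 67 without counts it ran from 0% to 100% with a median of 17.3%. The most abundant member was not the one with the most sequence of its own: the share was 33.8% for Mir467d and 73.9% for Mir669c. In Mir467d the stretches of its own lay mainly on the 5′ side of the hairpin, 55.9% of the stretches there against 11.8% on the 3′ side. In Mir669c the 3′ side had more, 91.3% against 56.5%. The tables sum both arms, so the arm that gave the counts is not known.

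**Figure D3:**
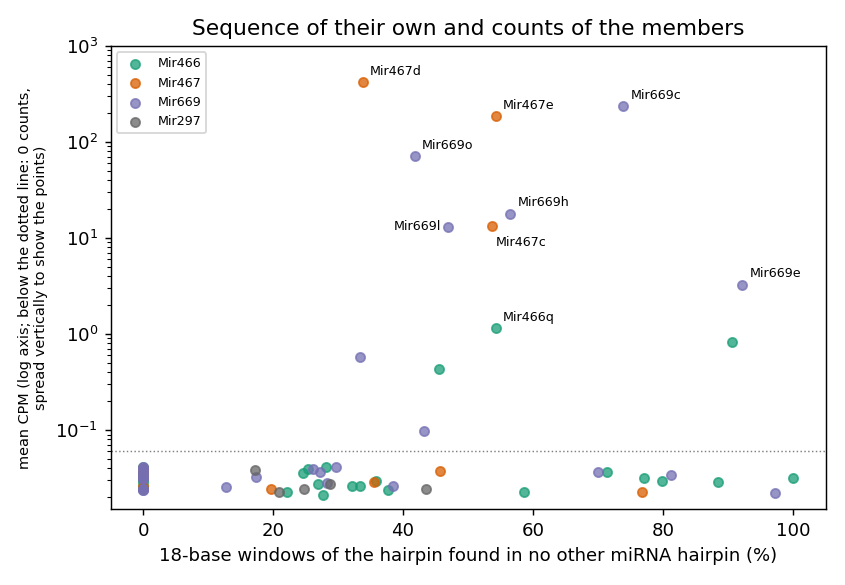
Share of 18-base windows of each hairpin that occur in no other annotated miRNA hairpin (percent) against mean CPM (log axis) for the 80 members, coloured by family; points below the dotted line have 0 counts. The 32 members at 0% all lie below the line, and so do Mir466g at 100% and Mir669n at 97.3%.

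A lack of counts was also seen in members with distinct hairpins. Mir466g shared no 18-base stretch and had 0 counts in both libraries, which allows up to 0.710 and 0.581 CPM. Mir669n (97.3% of stretches its own), Mir466f-4 (88.5%), Mir669b (81.3%) and Mir466l (79.8%) also had 0 counts. Mir466l, known for an effect on the stability of Il10 mRNA in macrophages, lies between members with counts, downstream of Mir669o and upstream of Mir669h. The comparison of stretches covers annotated miRNA hairpins only, and copies elsewhere in the genome were not searched. How far reads set aside as mapping to several places account for the zeros was not tested.

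Alternating repeats were present in most members. The 8-base motif TGTGTGTG on the hairpin's own strand was found in 52 of 80 members (65.0%) and in 140 of 2122 other miRNA hairpins (6.60%). The same motif on the other strand, read as CACACACA in the hairpin, was found in 43 members (53.8%) and in 143 others (6.74%). A hairpin can hold both, and 66 members (82.5%) held at least 1, against 11.7% of all 2202 hairpins. The families differed: 27 of 28 Mir466 hairpins held the TG motif and 14 of 17 Mir467 hairpins the CA motif, while none of the 5 Mir297 hairpins held either. At least 1 motif was held by 7 of the 9 members with 10 or more counts and by 55 of the 67 members without counts. The GC content of members was 36.6% at the median, from 21.7% for Mir467g to 46.1% for Mir466q, against a median of 51.4% over the other miRNA hairpins.

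Sfmbt2 holds 48 further miRNA genes on the plus strand. They had 6 counts in replicate 1 and 3 in replicate 2 in all, from 5 genes with predicted-gene names, and none reached 10 counts. Gm22678 had 4 counts in replicate 1 and 0 in replicate 2, and Gm22072 had 1 in each. Of these 48 hairpins, 22 had no 18-base stretch of their own. No member overlapped another miRNA gene, and all 80 members had 0 counts on the opposite strand in both libraries, so the stranded and unstranded counts of each member were equal.

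Replicate 2 was compared with replicate 1 by a two-sided exact binomial test on counts scaled by TMM library sizes, with Benjamini-Hochberg adjustment over all 546 miRNA genes with 10 or more counts. The test sets the difference between these 2 libraries against counting error alone, and it compares no conditions. Of the 9 members tested, 5 were called at an adjusted p under 0.05, against 58.8% of all tested genes, so the members' share was near the background. Of the 5, 3 were higher in replicate 2, where 24.5% of tested genes were called in that direction, and 2 were higher in replicate 1, against 34.2%. The median log2 ratio of replicate 2 over replicate 1 was 0.30 for the 9 members and -0.07 for all tested genes.

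Mir467d was 1.44-fold higher in replicate 2 (log2 ratio 0.52, adjusted p = 2.03e-28 by the exact binomial test). Mir467e was 1.33-fold higher (log2 ratio 0.41, adjusted p = 1.15e-08, exact binomial test) and Mir669o 1.24-fold higher (log2 ratio 0.31, adjusted p = 0.0128). These 3 were among the 4 most abundant members and lie in the downstream stretch of the cluster. Mir669c, which lies between them, had a log2 ratio of -0.03 (adjusted p = 0.671, exact binomial test), and its ratio of 0.976 had an exact 95% interval of 0.897 to 1.06. That interval does not overlap the interval of 1.35 to 1.53 for Mir467d. The sign of the Mir669c ratio turned with DESeq2 size factors, to a log2 ratio of 0.036.

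In the other direction, Mir669e was 16.2-fold higher in replicate 1 by its scaled counts of 26 and 2, with an exact 95% interval of 4.06 to 141 (adjusted p = 4.54e-07, exact binomial test). Mir669l was 1.57-fold higher in replicate 1 (log2 ratio -0.66, adjusted p = 0.0239, exact binomial test). Both lie at the upstream end of the cluster. Mir467c, at the same end, had a log2 ratio of 0.30 (adjusted p = 0.379, exact binomial test), and Mir669h had 0.16 (adjusted p = 0.601). Mir466q had a log2 ratio of 0.42 on 11 counts (adjusted p = 0.831), with an exact interval for its scaled ratio from 0.356 to 6.53. With 3 counts put in place of the 0, Mir466h had a scaled ratio of 2.91 toward replicate 1. By the same rule Mir669d-2 had 1.60 toward replicate 2. The observed 7 and 6 counts were taken without their own counting error, so these ratios are not lower bounds. Both genes fell under the filter of 10 counts. With a filter of 1 count in the sum, Mir466h was called (adjusted p = 0.00989, exact binomial test) and Mir669d-2 was not (adjusted p = 0.0832). When variation beyond counting was allowed for in an edgeR exact test at a biological coefficient of variation of 0.1, 2 members were called, Mir467d (adjusted p = 0.0455) and Mir669e (adjusted p = 7.33e-06), against 28.8% of tested genes. Mir467e (adjusted p = 0.142), Mir669o (0.335) and Mir669l (0.149) were then not called.

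**Figure D4:**
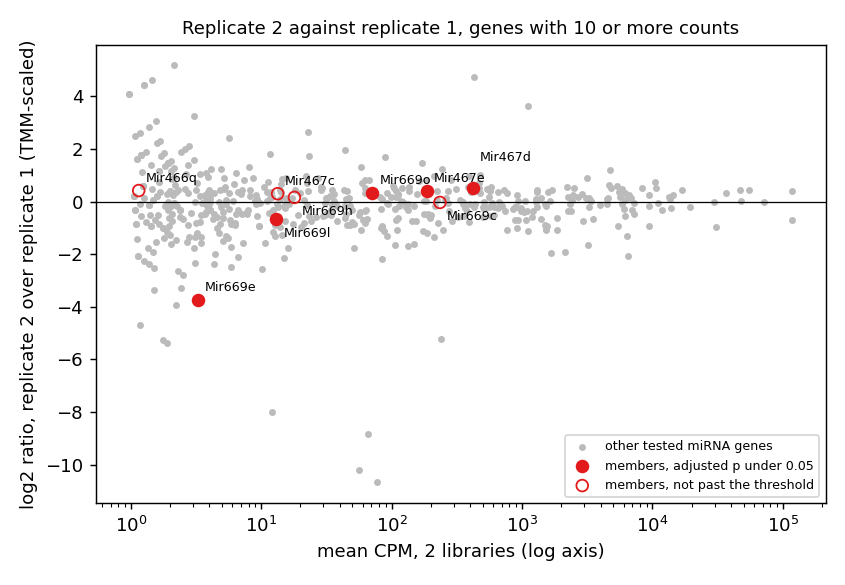
TMM-scaled log2 ratio of replicate 2 over replicate 1 against mean CPM (log axis) for the 546 tested miRNA genes; members are red, filled where the exact binomial test gave an adjusted p under 0.05. Mir467d at 0.52, Mir467e at 0.41 and Mir669o at 0.31 lie above 0, and Mir669e at -3.73 and Mir669l at -0.66 below it.

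Markers of other cell types also differed between the libraries. Both erythroid genes, Mir451a and Mir144, had a summed level of 36.2 CPM in replicate 1 and 861 CPM in replicate 2. The 4 genes of the choroid plexus and ependyma list had 884 and 1594 CPM, and the endothelial Mir126a 7756 and 13122 CPM. Astrocyte genes had 33637 and 28698 CPM and oligodendrocyte genes 7091 and 5329 CPM. The liver gene Mir122 had 48.5 and 86.6 CPM. On the muscle list Mir206 alone had counts, at 38.6 and 52.3 CPM, while Mir1a-1 and Mir133a-1 had 0 in both libraries. The 6 neuronal genes had 69176 and 43602 CPM, a sum led by Mir132 at 40577 and 21189 CPM. Mir128-1, at 9000 and 3687 CPM, and Mir128-2, at 2052 and 996 CPM, were also lower in replicate 2. The other neuronal genes differed less: Mir137 had 6008 and 5769 CPM, Mir383 7295 and 7140, and Mir138-1 4244 and 4820. Of 8 annotated genes on the embryonic stem and trophoblast list, 5 had counts, with a summed level of 423 CPM in replicate 1 and 0.194 CPM in replicate 2, and Mir290a, Mir291a and Mir295 were at 0. The 5 with counts were Mir302a, Mir302b, Mir302c, Mir302d and Mir294, the last with 2 counts in replicate 1 and 0 in replicate 2. All 7 genes of the X-linked testis cluster had 0 counts in both libraries. The part of these differences in the ratios of the members was not tested, and in bulk tissue a change in the number of cells cannot be told apart from a change in RNA per cell.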

How the data were processed

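The authors deposited 1 table of raw read counts per library, with 1 row per miRNA gene of GENCODE M21 on mm10, per the record with each file; the counts were not normalized or pooled. For the aligner, the counter and adapter trimming, the tool and version were not given in the sources used here. Columns were read as counts on either strand, the gene's strand (used here) and the opposite strand, from their totals. The first 4 rows name no gene and held 67.4% and 67.6% of reads; they stayed out of library sizes and tests. With 1 library on each side, no quasi-likelihood test is possible, so exact binomial tests were run on TMM sizes (edgeR 4.0.16; DESeq2 1.42.0 for other size factors; SciPy 1.17.1), with 0.5 counts added for log2 ratios. On data simulated with counting error only, for replicate 2 against replicate 1 (546 genes), 76.9% of 200 genes changed 2-fold were recovered and 0.882% of unchanged genes called. The simulation held no further spread between libraries, so its low share of false calls does not carry over to the real libraries.

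Named members are those with 10 or more counts in the sum; others were named after their values were seen. Members, marker lists and tests were chosen with earlier results of these data known. Positions and hairpins came from M21, printed sequences from RefSeq. Alternatives covered strand, scaling, filters, thresholds, denominators, pseudocount, test and leaving out each library.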

Additional observations from a re-analysis of the deposited data

How the results depend on the processing

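The 7 detected members stayed 7 with unstranded counts, at 1 CPM, with Mir297-1 added (chosen after seeing the data) and with either library left out (7 to 7). They were 10 at 1 count in both libraries, 3 at 100 CPM and 0 among hairpins sharing no 18-base stretch, a class of 1 member. Adding Mir297-1, with 0 counts in both libraries, could not change the number detected, and unstranded counting changed only the library totals. The 13 members with a count were 11 to 12 when each library was left out. Their share of counts was 0.0312% of all reads in the tables, 0.0542% without Mir467d (chosen after seeing the data) and 0.0848% to 0.108% with each library left out, which moves a mean of 2 by less than its SD by construction. The 5 members called between libraries were 4 to 6 (Mir466h added at 1 count or more) under other scalings, filters and strands and 2 under the edgeR exact test at a biological coefficient of variation of 0.1, which by construction allows for more than counting error. Of 61 alternative values for the 9 tested members, 57 kept direction and call, 3 lost the call under that edgeR test and 1 changed sign (Mir669c, 0.036 with DESeq2 size factors). Values with the pseudocount of 2 reused the main adjusted p, so they could not lose a call. The unstranded setting used the same member counts as the main one. No paired analysis was possible because the design holds 1 group.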
